A study of Homo sapiens with 6 samples.

Results

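The genes described here are 40 genes of the unfolded protein response and of the transcription factor ATF4, taken by symbol from a table of 74852 loci. They were listed for their known part in this pathway, by a choice made with earlier results of these data known. They comprise sensors of stress, transcription factors, ATF4 targets that act in stress and feedback, enzymes of amino acid and one-carbon metabolism, chaperones and folding enzymes of the endoplasmic reticulum (ER), and genes of ER-associated degradation. Of these, 39 matched a locus and all 39 entered the test, whereas ATF5 matched no locus by symbol and was not analysed here. The RNA was from MDA-MB-231, a human triple-negative breast cancer (TNBC) cell line, so that all libraries represent a single line in culture. In 3 libraries the cells had received a pool of control siRNAs (si-CTRL), and in 3 others a mixture of 4 siRNAs that target SAM68 (si-SAM68), and no other treatment or genotype separates the groups. According to the labels, cells underwent 2 rounds of transfection and were harvested 24 h after the second round, while the methods of the paper give another harvest time. The methods of the paper speak of harvests in triplicate, without stating whether these were separate cultures or transfections, so that the p-values measure the spread between these libraries, which may be technical.

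When misfolded proteins accumulate in the ER, the membrane proteins PERK, IRE1 and ATF6 signal to the nucleus in what is called the unfolded protein response. PERK, like the amino acid sensor GCN2, phosphorylates the translation factor eIF2alpha, which lowers protein synthesis but favours translation of the ATF4 mRNA. ATF4 then binds, often with C/EBP proteins, to genes for amino acid synthesis and import, one-carbon metabolism and stress feedback. IRE1 splices the XBP1 mRNA, and XBP1 and ATF6 raise chaperones, folding enzymes and degradation factors. Much of this pathway is controlled by translation, cleavage or splicing, none of which is seen in a count of mRNA per locus.

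The normalized read counts used throughout are the reads on a locus divided by the size factor of the library. The libraries held between 52625492 and 82568487 reads, and a member had between 112 and 209450 reads in a library. The locus of ribosomal RNA took 15.1% of the reads of si-SAM68 replicate 2 and between 1.84% and 3.17% of those of the other 5 libraries, so that leaving out this library is given beside the main counts. KHDRBS1, the gene encoding Sam68, was at 15660, 14483 and 14737 normalized read counts in si-CTRL replicates 1, 2 and 3, and at 583, 602 and 670 in the si-SAM68 replicates. Thus, 4.13% of the si-CTRL mean remained, with a log2 fold change of -4.60 (SE 0.083, limma adjusted p = 2.13e-09). VIM and CD44, markers of the mesenchymal-like line, were abundant in every library, whereas the epithelial and hormone receptor genes CDH1, EPCAM, ESR1 and PGR were under the filter on low values. KRT8 and KRT18 were higher in si-SAM68 (log2 fold change of 0.31 and 0.35, limma adjusted p = 0.0436 and 0.0144). Values from bulk RNA cannot tell a lower level in every cell from a stronger change in some of the cells.

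Depletion of Sam68 was accompanied by lower mRNA of 10 members, while none was called higher by limma. The 10 genes were MTHFD2, DNAJC3, VLDLR, CEBPB, PPP1R15A, TRIB3, CEBPG, ERN1, PHGDH and ASNS, with decreases between 20.4% and 49.7%. A single member, DDIT4, was higher at an unadjusted p-value under 0.05, and the count of members called higher was 0 with edgeR and 1 with DESeq2, again DDIT4. Amino acid and one-carbon enzymes and ATF4 targets of stress and feedback held 3 of them each. ATF4 itself (log2 fold change 0.01) and the abundant ER chaperones HSPA5, HSP90B1, CALR and CANX (between -0.17 and 0.08) were not called. The lower confidence limits of HSPA5 and CALR were -0.39 and -0.31, so that a decrease near that of ASNS (-0.33) is not excluded. MANF was not called either, although its groups did not overlap (log2 fold change -0.29). Whether these genes differed less than the called members was not tested. The call is a limma adjusted p-value under 0.05, with Benjamini-Hochberg adjustment over the 18849 loci tested. The 10 members are 25.6% of the 39, whereas 6.23% of all loci tested were called lower and 4.47% higher. Since the members are abundant (a median of 5043 normalized read counts, as compared with 610 for all loci), the share was also taken among loci with a mean of at least 1000, where 7 of 32 members (21.9%) and 6.395% of 7991 loci were lower. Under the thresholds of the paper (a fold change of 1.5 or more at an unadjusted p-value not above 0.05), 4 members were lower, which are MTHFD2, DNAJC3, VLDLR and CEBPB, and none was higher. These 4 are 10.3% of the members, and the same thresholds called 4.83% of all loci lower and 2.83% higher (911 and 534 loci). The thresholds were applied here to the limma fit, so these counts are not those of the paper, whose own analysis reported fewer regulated genes. The lowest si-CTRL library was above the highest si-SAM68 library in 15 members (38.5%), no member had all si-SAM68 libraries above all si-CTRL libraries, and the groups did not overlap in 33.9% of all loci. The median log2 fold change was -0.15 over the members and 0.005 over all loci tested. The count of calls depended on the libraries and on the fit. It was 4 without si-SAM68 replicate 2, where 811 loci in all were called as compared with 2017 in the full comparison, and between 3 and 12 without any other library, with 627 to 2834 loci. It was also 4 with eBayes without a trend (899 loci), 7 without the filter on low values (1500 loci) and 8 with the replicate as a block (1697 loci).

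**Figure D1:**
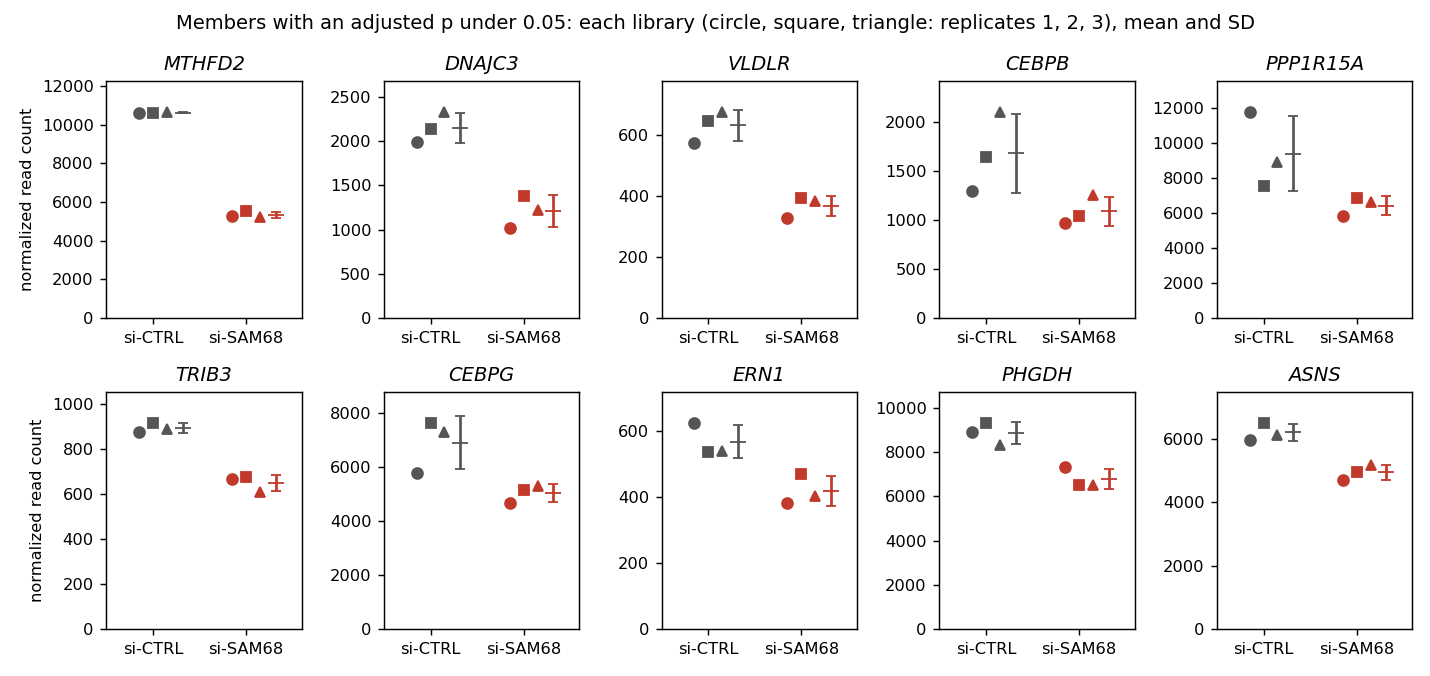
Normalized read counts (vertical axes, each from 0) of the 10 members with an adjusted p under 0.05, in the 3 si-CTRL libraries (grey) and the 3 si-SAM68 libraries (red). Symbols are replicates 1, 2 and 3, the dash is the mean and the bar the SD; in every panel the groups do not overlap, and MTHFD2 has the widest gap relative to its spread.

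The sequences of the 4 siRNAs against SAM68 are shown because short matches to them are described below for several members. Each is written as the sense strand, 5′ to 3′, which matched the coding sequence of KHDRBS1 (locus chr1:32479295-32526460, hg19). Of the 2 protein-coding transcripts of GENCODE 29, siSAM68_4 matched 1, and siSAM68_1, siSAM68_2 and siSAM68_3 matched both. Capitals mark the 7 bases that pair with bases 2 to 8 (the seed) of the guide strand.
siSAM68_1: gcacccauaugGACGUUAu
siSAM68_2: gaaagagcgagUGCUGAUa
siSAM68_3: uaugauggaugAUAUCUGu
siSAM68_4: aaagaucucugUAUUGGGa

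Among the sensors, ERN1, which encodes the kinase and RNase IRE1, was called lower. ERN1 (locus chr17:62120353-62207528, hg19) was at 624, 536 and 538 normalized read counts in si-CTRL and at 381, 467 and 401 in si-SAM68. All 3 depleted libraries were thus under the lowest control. The log2 fold change was -0.44 (SE 0.12, limma adjusted p = 0.0421), with an adjusted p of 0.0706 when limma was given the replicate as a block. In the 6 limma fits with a library left out, the adjusted p was between 0.0519 and 0.151, so that the call was kept in 0 of them. The other sensors were slightly higher in si-SAM68 and did not pass the test. EIF2AK3, which encodes PERK, had a log2 fold change of 0.11, EIF2AK4, which encodes GCN2, one of 0.13, and ATF6 one of 0.13, with limma adjusted p-values between 0.411 and 0.470. In each of them the groups overlapped. EIF2AK1 and EIF2AK2, the kinases of eIF2alpha that answer to haem and to double-stranded RNA, were at 0.19 and -0.11 on the log2 scale and were not called.

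ATF4, the transcription factor on which the eIF2alpha kinases converge, was at nearly the same mRNA level in both groups. Its normalized read counts were 29457, 26201 and 26885 in si-CTRL and 28070, 27948 and 27051 in si-SAM68. The depleted libraries fell within the range of the controls. The log2 fold change was 0.01, with a 95% interval from -0.15 to 0.18 (limma adjusted p = 0.944), so that a change beyond this interval was not seen at the mRNA level.

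CEBPB and CEBPG, which encode C/EBP proteins that pair with ATF4 on DNA, were both called lower. CEBPB (chr20:48807120-48809227, hg19) was at 1302, 1642 and 2105 normalized read counts in si-CTRL and at 970, 1039.5 and 1260.0 in si-SAM68. The groups did not overlap, but si-CTRL replicate 1 and si-SAM68 replicate 3 were close. limma gave a log2 fold change of -0.61 (SE 0.17, limma adjusted p = 0.0439), and the call was kept in 1 of the 6 fits with a library left out. The antisense locus CEBPB-AS1, which overlaps it, had means of 101 and 82.6 normalized read counts in si-CTRL and si-SAM68. CEBPG (chr19:33864236-33873591, hg19) was at 5784, 7645 and 7297 in si-CTRL and at 4660.3, 5138 and 5292 in si-SAM68, a log2 fold change of -0.45 (SE 0.11, limma adjusted p = 0.0299), and its call was also kept in 1 of those 6 fits. Here si-CTRL replicate 1 was the lowest control and si-SAM68 replicate 1 the lowest depleted library. The other factors did not pass the test. XBP1, whose spliced mRNA encodes the factor downstream of IRE1, had a log2 fold change of -0.08, DDIT3, which encodes the pro-apoptotic factor CHOP, one of -0.20, and ATF3, a stress-induced repressor, one of 0.02. DDIT3 and ATF3 were low, with at most 199 and 323 normalized read counts in any library, and the 95% interval of ATF3 spanned -0.42 to 0.46. The locus of DDIT3 overlaps that of MARS, which was at 17230 normalized read counts on average in si-CTRL, and whether strand was used in counting is not given in the sources used here.

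The ATF4 targets of stress and feedback split into 3 genes called lower and 5 not called, with a median log2 fold change of -0.32. VLDLR (chr9:2621774-2656103, hg19), a lipoprotein receptor induced through ATF4, was at 575, 644 and 675 normalized read counts in si-CTRL and at 328, 391.9 and 382 in si-SAM68. Every depleted library was far under the lowest control. limma gave a log2 fold change of -0.78 (SE 0.12, limma adjusted p = 0.00356), and the gene was called in all 6 fits with a library left out and under all 10 other alternatives. The overlapping VLDLR-AS1 was at 12.2 and 5.25 normalized read counts on average in si-CTRL and si-SAM68. TRIB3 (chr20:361273-378205, hg19), a pseudokinase that restrains ATF4, was at 879, 918 and 888 in si-CTRL and at 667, 677 and 611 in si-SAM68. These libraries were tightly grouped within each condition. On the log2 scale the difference was -0.46 (SE 0.091, limma adjusted p = 0.0136), and the call was lost in a single one of the 6 fits, without si-SAM68 replicate 3 (adjusted p = 0.0704).

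PPP1R15A encodes GADD34, the inducible phosphatase subunit that reverses the phosphorylation of eIF2alpha. Its locus (chr19:49375649-49379318, hg19) was at 11798, 7549.8 and 8910 normalized read counts in si-CTRL and at 5843, 6862 and 6623 in si-SAM68. The groups did not overlap, yet the controls spread widely, with replicate 1 the highest. limma gave a log2 fold change of -0.53 (SE 0.14, limma adjusted p = 0.0445), the adjusted p was 0.0724 with the replicate block, and it ranged up to 0.152 when a library was left out. In the deposited coordinates this locus overlaps that of FTL, at 141900 normalized read counts on average in si-CTRL and 157400 in si-SAM68. PPP1R15B, which encodes the constitutive counterpart of GADD34, had a log2 fold change of 0.13 and overlapping groups.

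CHAC1, which degrades glutathione, SESN2, which restrains mTORC1, and STC2, a secreted glycoprotein, were not called. CHAC1 was at 677, 568 and 627 normalized read counts in si-CTRL and at 473, 527 and 418 in si-SAM68. Its groups did not overlap, with a log2 fold change of -0.40 and a limma adjusted p of 0.0594. SESN2 was also lower in every depleted library, at -0.24 on the log2 scale with an adjusted p of 0.143, whereas STC2 was at -0.0043. DDIT4, which encodes the mTORC1 inhibitor REDD1, had the highest fold change of the members. Its normalized read counts were 2081, 3476 and 2873 in si-CTRL and 4081, 3762 and 3375 in si-SAM68. The groups overlapped, because si-CTRL replicate 2 was above si-SAM68 replicate 3. The log2 fold change of 0.44 (SE 0.16) had a limma adjusted p of 0.115, and it passed the test with DESeq2 on the recovered reads (adjusted p = 0.0483) and without si-CTRL replicate 2 (log2 fold change 0.61, adjusted p = 0.0293).

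Of the 6 enzymes of amino acid and one-carbon metabolism, 3 were called lower and 3 were not called, with a median log2 fold change of -0.30. MTHFD2 (chr2:74425690-74442422, hg19), a mitochondrial folate enzyme that is abundant in many tumours, had the largest decrease of all members. It was at 10592, 10627 and 10655 normalized read counts in si-CTRL and at 5276, 5534 and 5237 in si-SAM68. The libraries of each group were almost equal, with the si-SAM68 mean at 50.3% of that of si-CTRL. This is a log2 fold change of -0.99 (SE 0.068, limma adjusted p = 0.000107), and leaving out each library kept it between -1.02 and -0.98. The gene was called under all alternatives tried. Its locus overlaps that of DCTN1 and SLC4A5, which was at 23850 normalized read counts on average in si-CTRL and 23910 in si-SAM68.

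PHGDH, which catalyses the first step of serine synthesis, and ASNS, asparagine synthetase, fell less. PHGDH (chr1:120254419-120286849, hg19) was at 8933, 9334 and 8328 normalized read counts in si-CTRL and at 7330, 6528 and 6526 in si-SAM68, a log2 fold change of -0.38 (SE 0.081, limma adjusted p = 0.0170). ASNS (chr7:97481425-97601662, hg19) was at 5980.4, 6525 and 6138 in si-CTRL and at 4711, 4961 and 5178 in si-SAM68, a log2 fold change of -0.33 (SE 0.075, limma adjusted p = 0.0238). In both genes all depleted libraries were under the lowest control. PHGDH kept its call in 3 and ASNS in 1 of the 6 fits with a library left out. PSAT1 and PSPH, for the next steps of serine synthesis, were not called, and a difference between them was not tested. PSAT1 had a log2 fold change of -0.21 with overlapping groups, and PSPH one of 0.10. SHMT2, which moves one-carbon units from serine to folate in mitochondria, was lower in every depleted library but did not pass the test (log2 fold change -0.28, limma adjusted p = 0.135), with si-CTRL replicate 1 at 26910 normalized read counts and the other controls at 20765 and 20189.

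Of the 11 ER chaperones and folding enzymes, DNAJC3 was the one called lower. DNAJC3 (chr13:96329393-96447243, hg19) encodes P58IPK, a co-chaperone that also inhibits eIF2alpha kinases. It was at 1986, 2135 and 2331 normalized read counts in si-CTRL and at 1018, 1377 and 1228 in si-SAM68. No depleted library came near the controls. On the log2 scale the difference was -0.84 (SE 0.12, limma adjusted p = 0.00288), and the gene was called in all 6 fits with a library left out and under all 10 other alternatives.

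The other 10 genes of this role had a log2 fold change between -0.29 and 0.08 and were not called. HSPA5, which encodes the master chaperone BiP, was at 164952, 135727 and 153856 normalized read counts in si-CTRL and at 124287, 145216 and 134143 in si-SAM68. These ranges overlapped, with a log2 fold change of -0.17 and a 95% interval from -0.39 to 0.05. HSP90B1, which encodes GRP94, was at 0.08, and the lectin chaperones CALR and CANX were at -0.0017 and 0.00. The 95% intervals of CALR and CANX were -0.31 to 0.30 and -0.25 to 0.25. In both genes si-CTRL replicate 1 was the highest library, and without it their log2 fold changes were 0.18 and 0.13. The disulfide isomerases PDIA4 and PDIA6 were at -0.14 and 0.03, the co-chaperone DNAJB9 at -0.03, the folding factor CRELD2 at -0.15 and the chaperone partner SDF2L1 at -0.06. For SDF2L1 the controls were at 1080, 1829 and 2506 normalized read counts, so that its 95% interval reached from -0.59 to 0.47. MANF, a secreted ER protein, was at 13867, 11260.3 and 12603 normalized read counts in si-CTRL and at 10181, 10413 and 10083 in si-SAM68. Its groups did not overlap, and its log2 fold change of -0.29 had a limma adjusted p of 0.0572 and a DESeq2 adjusted p of 0.0190. The loci of HSP90B1 and CALR each join a microRNA gene, MIR3652 and MIR6515.

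None of the 4 genes of ER-associated degradation was called by limma, edgeR or DESeq2, and the unadjusted p-values of limma were between 0.0551 and 0.696. HERPUD1, which organises the degradation complex, was lower in every depleted library (log2 fold change -0.24, adjusted p = 0.196). EDEM1, which selects glycoproteins for degradation, had a log2 fold change of 0.13, SEL1L, an adaptor of the ubiquitin ligase HRD1, one of 0.04, and SYVN1, the ligase itself, one of -0.19. In SYVN1, whose locus joins MIR6751, si-CTRL replicate 1 stood at 2538 normalized read counts and the other 5 libraries between 1592 and 1837.

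**Figure D2:**
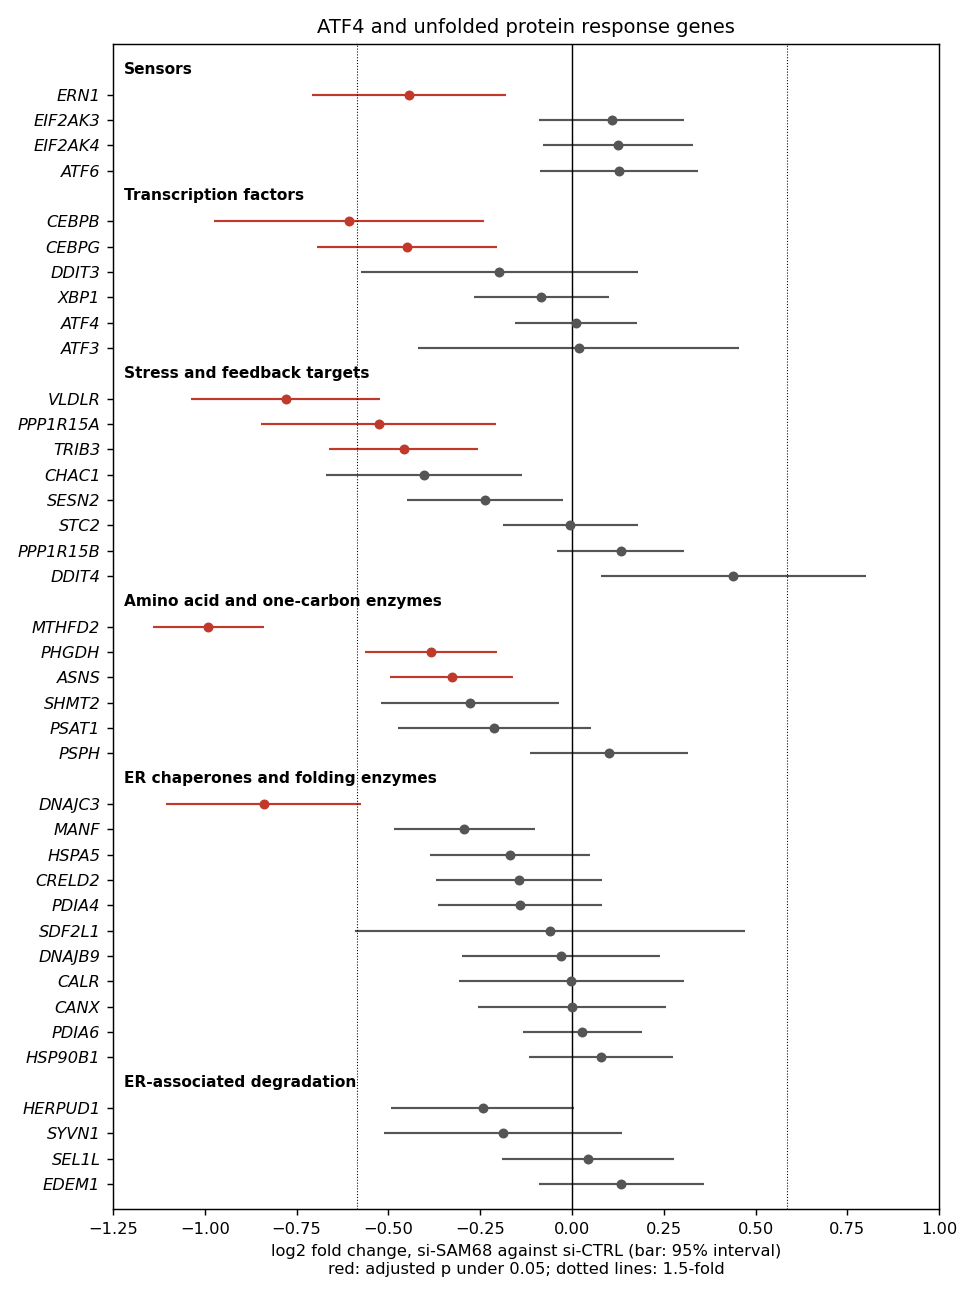
Log2 fold change of the 39 members, si-SAM68 against si-CTRL, by role. Points are fitted values, bars the 95% interval of limma, red marks an adjusted p under 0.05, and the dotted lines mark a 1.5-fold change; the red points are all left of 0 and DDIT4 is the farthest to the right.

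The shift of each role was also described library by library, as the median deviation of its genes from their si-CTRL mean on the log2 scale. For the stress and feedback targets, this median was 0.03, -0.0045 and -0.0019 in the si-CTRL libraries and -0.33, -0.21 and -0.40 in the si-SAM68 libraries. For the amino acid and one-carbon enzymes it was -0.03, 0.05 and -0.0069 in si-CTRL and -0.25, -0.32 and -0.30 in si-SAM68. In both roles the depleted libraries were under all controls. For the chaperones and folding enzymes the range was -0.12 to 0.07 in si-CTRL and -0.14 to -0.06 in si-SAM68, and for ER-associated degradation it was -0.19 to 0.23 and -0.14 to -0.03. In these roles the groups overlapped. The sensors and the transcription factors overlapped as well.

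**Figure D3:**
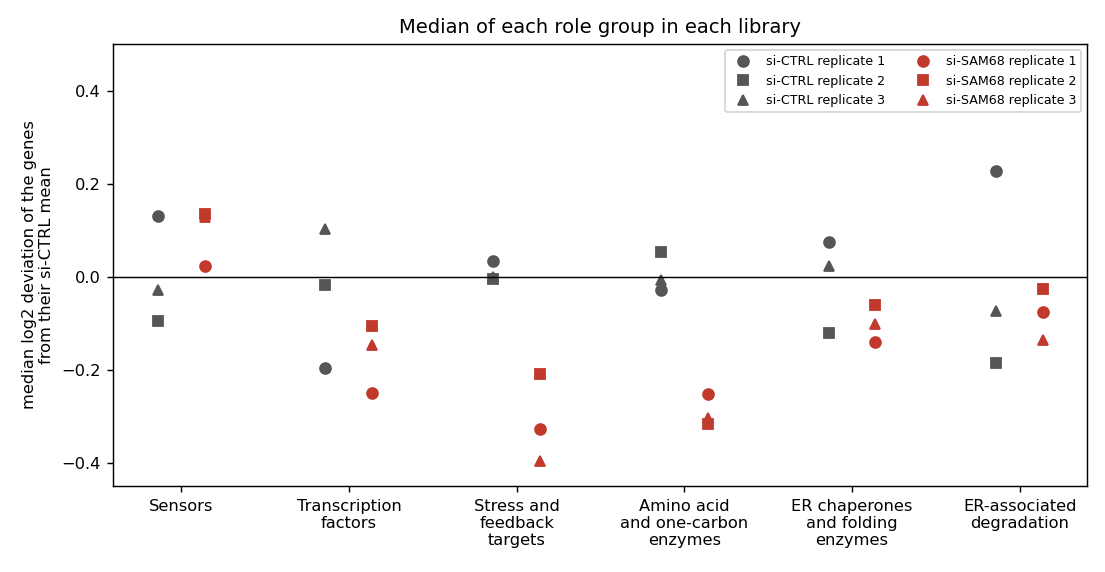
Median log2 deviation of the genes of each role from their si-CTRL mean (vertical axis), in each si-CTRL library (grey) and si-SAM68 library (red). Symbols are replicates 1, 2 and 3; the groups are apart for stress and feedback targets (-0.40 to -0.21 in si-SAM68) and for amino acid and one-carbon enzymes (-0.32 to -0.25), and they overlap for the other roles.

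Levels can be compared between genes when counts are divided by length. In normalized reads per kilobase of merged exons (GENCODE 29), the si-CTRL mean was highest for CALR, at 63710, followed by HSP90B1 at 52810, HSPA5 at 38770 and CANX at 26270. CALR and HSP90B1 did not differ beyond their spread (SD of 14630 and 3719, n = 3). ATF4 was at 10940, MTHFD2 at 2384 and DNAJC3 at 385 per kilobase. The lowest were ATF3 at 95.03, VLDLR at 68.9 and ERN1 at 57.8. The genes called lower thus ranged from the least abundant member to PHGDH at 3136 per kilobase, and no member above PHGDH on this scale was called.

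**Figure D4:**
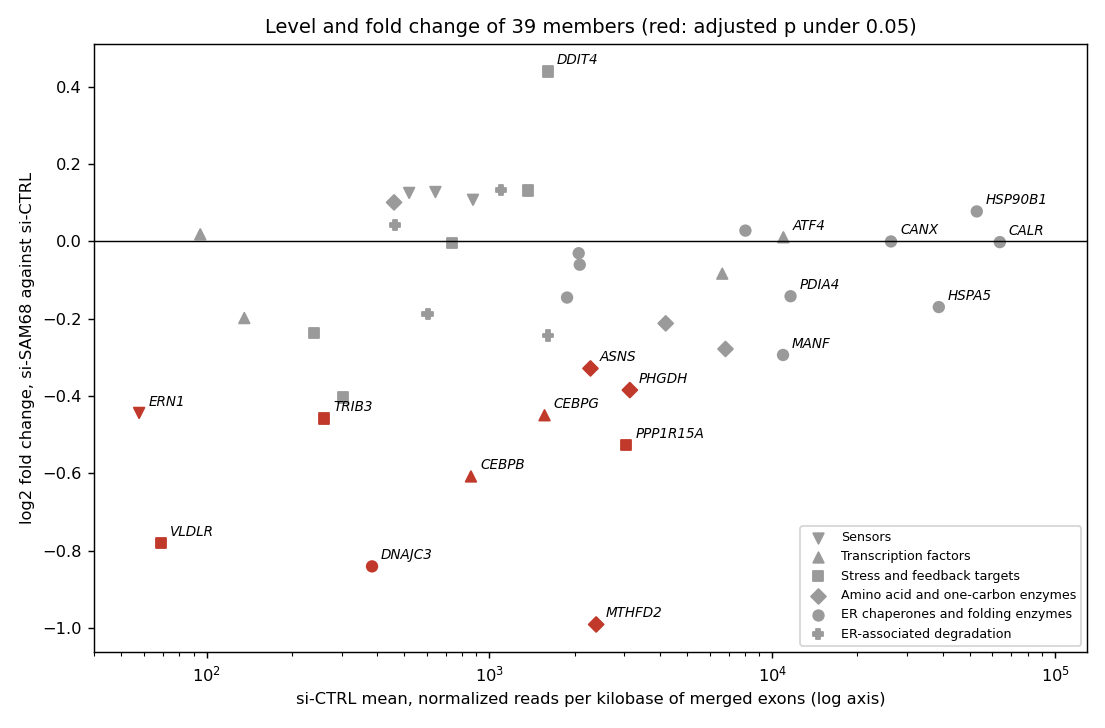
Fold change against level for the 39 members. The horizontal axis is the si-CTRL mean in normalized reads per kilobase of merged exons (log axis), the vertical axis the log2 fold change of si-SAM68 against si-CTRL, and symbols give the role; the 10 members with an adjusted p under 0.05 (red) lie at or under 3136 per kilobase.

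The promoters of members were searched for the elements of the pathway's own factors, and examples are printed to show which members hold which element. Genes of the same role could hold different elements. Promoter sequences, from RefSeq (GRCh38.p14, 250 bases before to 50 after each start), matched 38 of the 40 listed members (not PSPH or SHMT2). ATF5, which has no expression value here, is among the 38. The motifs were searched on both strands, and no match printed here overlaps another. The ER stress response element (ERSE) was taken as CCAAT, 9 bases of any kind, then CCACG. ERSE-II was ATTGG, any base, then CCACG, and the C/EBP-ATF element was TGATG, any base, then AA. ERSE was found in CALR, CANX, CRELD2, HSP90B1, HSPA5, PDIA6 and XBP1. These are 18.4% of the 38, beside 0.0916% of all 27305 genes (0.0769% of all 35097 promoters). ERSE-II was found in HERPUD1 and SDF2L1 (5.26%), and in 0.0696% of all genes (0.0541% of promoters). The C/EBP-ATF element was found in ASNS, ATF3, CEBPG, CHAC1, HERPUD1 and PPP1R15B (15.8%), and in 4.46% of all genes (3.62% of promoters). Capitals mark the match in the following stretches, which are on the strand of the gene and 5′ to 3′.
HSPA5, ERSE, chr9:125241386-125241414: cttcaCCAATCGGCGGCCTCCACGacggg
CALR, ERSE on the opposite strand, chr19:12938379-12938407: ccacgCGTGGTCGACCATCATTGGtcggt
HSP90B1, ERSE, chr12:103930211-103930239: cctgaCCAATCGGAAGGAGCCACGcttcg
XBP1, ERSE, chr22:28800598-28800626: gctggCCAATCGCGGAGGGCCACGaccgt
HERPUD1, ERSE-II, chr16:56932016-56932044: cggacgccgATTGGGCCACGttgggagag
ASNS, C/EBP-ATF, chr7:97872458-97872487: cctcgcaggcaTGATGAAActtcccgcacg
CEBPG, C/EBP-ATF, chr19:33374060-33374089: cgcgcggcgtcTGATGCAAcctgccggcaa
CHAC1, C/EBP-ATF on the opposite strand, chr15:40953251-40953280: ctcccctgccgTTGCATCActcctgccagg
ATF3, C/EBP-ATF, chr1:212565205-212565234: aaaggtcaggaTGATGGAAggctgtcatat

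With all libraries, none of the 7 members with ERSE, nor the 2 with ERSE-II, had an adjusted p under 0.05 with limma, edgeR or DESeq2. Their log2 fold changes were between -0.24 and 0.08. Without si-CTRL replicate 1, SDF2L1 was called lower (log2 fold change -0.39, limma adjusted p = 0.0407). Of the 6 with the C/EBP-ATF element, ASNS and CEBPG were called lower, CHAC1 was lower in every depleted library without passing the test, and ATF3, HERPUD1 and PPP1R15B were not called. The members were picked for their known control by these factors, so that the elements describe the promoters and are no finding of the comparison, and a promoter without a match lacks only these letters in this window.

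Several of the called members hold a match to the seed of an siRNA against SAM68 in their 3′UTR. In the longest 3′UTR of GENCODE 29, a 7-base match to at least 1 of the 4 siRNAs was present in 5 of the 10 called members (ERN1, CEBPG, VLDLR, MTHFD2 and DNAJC3) and in 4 of the other 29 (EIF2AK4, STC2, DNAJB9 and CANX). The 3 members with the largest decrease were among them. Among 11965 tested genes with a single symbol and a 3′UTR, 29.8% held such a match. The sites of these 3 members are printed with the matched bases in capitals, and their position counted from the first base of the 3′UTR.
MTHFD2 with siSAM68_4, position 600: cttagtcagttTATTGGGa
MTHFD2 with siSAM68_2, position 2601: ctcctgacctcTGCTGATt
VLDLR with siSAM68_2, position 5454: gtcctcctcatTGCTGATg
VLDLR with siSAM68_4, position 5727: tatgtataagaTATTGGGa
DNAJC3 with siSAM68_1, position 3555: taatttcaaatGACGTTAa

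Length moves with these matches. The 3′UTR was 6185 bases in VLDLR, 4846 in ERN1, 3959 in DNAJC3, 3323 in MTHFD2 and 2994 in CEBPG, and its median was 1972 bases in the called members and 995 in the others. The median log2 fold change was -0.44 in the 9 members with a match and -0.14 in the 30 without. Over all tested genes it was -0.0063 with a match and -0.0084 without. For the si-CTRL pool, 6 of the 10 called members and 13 of the other 29 held a match, as did 56.3% of the tested genes. These 6 were ERN1, CEBPG, VLDLR, MTHFD2, DNAJC3 and PHGDH. Thus, every called member with a match to the SAM68 pool also held a match to the si-CTRL pool. The median log2 fold change of members was -0.08 with and -0.16 without a match to the si-CTRL pool. The part of these matches in the decreases was not tested. The 5 called members without a match to the SAM68 pool were CEBPB, TRIB3, PPP1R15A, ASNS and PHGDH, with log2 fold changes between -0.61 and -0.33.

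**Figure D5:**
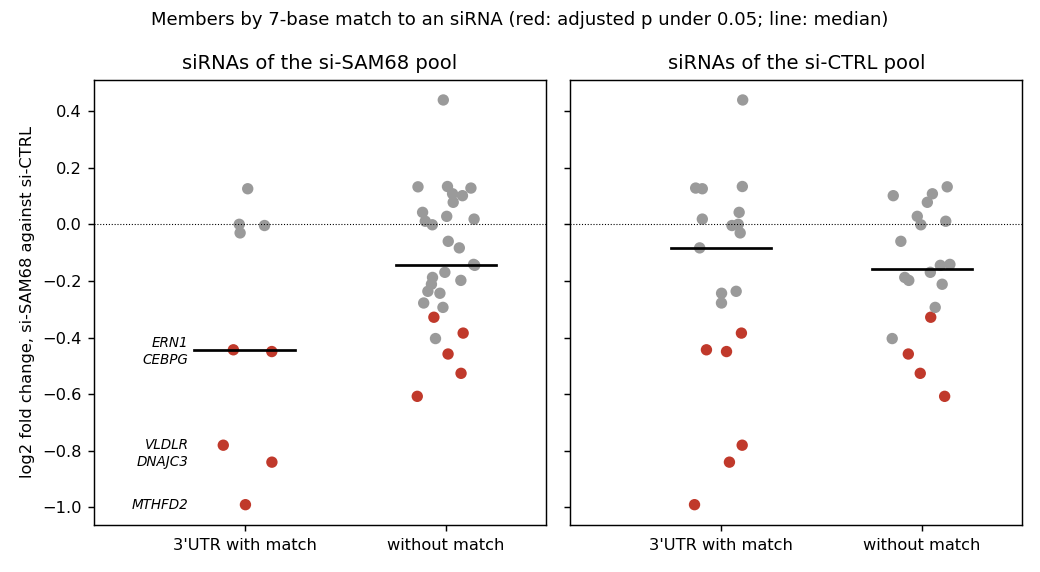
Log2 fold change of the 39 members (vertical axis) by whether their 3′UTR holds a 7-base match to an siRNA of the si-SAM68 pool (left) or the si-CTRL pool (right). Points are genes, red marks an adjusted p under 0.05, and lines are medians; for the si-SAM68 pool these were -0.44 with and -0.14 without a match.

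Further genes of the pathway gave a mixed picture. Of 31 other ATF4 targets tested, 6 were called lower and 3 higher, with a median log2 fold change of -0.16. The largest changes were in ALDH1L2, a mitochondrial folate enzyme, at -0.87 (limma adjusted p = 0.0238), SLC1A4, a carrier of neutral amino acids, at -0.68 (0.0274), JDP2, a bZIP repressor, at -0.55 (0.0236), and GDF15, a stress-induced cytokine, at -0.54 (0.0493). ALDH1L2 was at 348, 260 and 199 normalized read counts in si-CTRL and at 127, 162 and 141 in si-SAM68, so that its groups did not overlap. The 3 genes called higher, named after their values were seen, were SLC38A2, KLHL24 and ERO1A. SLC38A2 and KLHL24 were both at 0.51 (limma adjusted p = 0.00455 and 0.0463), and ERO1A was at 0.32 (0.0423). Of 49 other genes of ER folding, translocation and degradation, 2 were called lower and 2 higher, with a median of 0.0011. These were DERL1, a channel component of ER-associated degradation, at -0.41 (limma adjusted p = 0.00706), SEC24D, a coat protein of ER export, at -0.29 (0.0350), SPCS3, a subunit of the signal peptidase, at 0.52 (0.0333), and EDEM2, which trims glycans for degradation and whose locus joins MMP24-AS1, at 0.31 (0.0305). The counts of lower calls, 6 of 31 and 2 of 49, are to be read beside the 6.23% of all loci called lower. Those of higher calls, 3 of 31 and 2 of 49, are to be read beside the 4.47% called higher.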

How the data were processed

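RNA-seq of 6 MDA-MB-231 libraries, 3 per group by the labels, was analysed. The table deposited by the authors holds a signal, the reads counted per FAST DB locus (hg19) divided by a DESeq2 size factor, with no filter, since 41493 loci were at 0 in every library. The submitters' processing notes name STAR 2.4.0, SAMtools, Picard, FastQC and DESeq2, and the labels a stranded kit, while the use of strand in counting is not given in the sources used here. The labels and the paper also differ in medium and RNA kit. Every value was a whole multiple of its library's step (100%, tolerance 0.001 of a read), and these reads were used for edgeR and DESeq2.

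Groups were compared with limma 3.58.1 (R 4.3.3; lmFit and eBayes with trend) without a block. The 18849 loci whose mean reached 10 normalized read counts entered the fit as log2(value + 1). Fold changes are on that scale. The script was tested on simulated data. Libraries of the same number were correlated in their deviations from the group means at 0.105, 0.231 and 0.125 (other pairs -0.125 to 0.007). Deviations from a group mean are not independent of each other, so these values alone cannot show whether the numbers pair the libraries. The main fit takes no account of such a pairing. A fit with the block was an alternative, which kept 8 of the called members. Others were pseudocounts of 0.1 and 5, no filter, a mean of 50, TMM factors, quantile normalization, eBayes without trend, each library left out, edgeR 4.0.16 and DESeq2 1.42.0.

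Members and lists were chosen with earlier results of these data known. All members are named, with KHDRBS1, and of each list of other genes the 4 with the largest absolute log2 fold change among those called. Intervals are 95%. Depth is given by the reads per library, and the precision is limited by 3 libraries per group. siRNA sequences are those of the study's supplement.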

Additional observations from a re-analysis of the deposited data

How the results depend on the processing

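All 10 called members stayed lower under every alternative. VLDLR, MTHFD2 and DNAJC3 were called under each of them, TRIB3 under all but 1. The 10 genes were called with both pseudocounts, TMM factors, edgeR and a minimum mean of 50, which added CHAC1 and MANF. Without a filter 7 were called, losing ERN1, CEBPB and PPP1R15A. Quantile normalization lost ERN1 and added MANF. eBayes without a trend called 4 members, all lower (VLDLR, MTHFD2, DNAJC3 and TRIB3), and 899 loci against 2017. DESeq2 called 13, of which 1 was higher (DDIT4), and 2789 loci. With the replicate block 8 were called, without ERN1 and PPP1R15A, and 1697 loci, and it changed no other call of a member. When a library was left out, which leaves 2 in its group, 3 to 12 members were called, 3 to 12 of them lower and 0 to 1 higher, with 627 to 2834 loci. The counts were 12 and 7 without si-CTRL replicates 1 and 2, 5 without si-CTRL replicate 3, and 5, 4 and 3 without si-SAM68 replicates 1, 2 and 3. The thresholds of the paper gave 4 members throughout and 3 to 6 without a library. The median log2 fold change stayed between -0.16 and -0.11.

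The sign changed only in members near 0. With quantile normalization ATF4 was at -0.0542 and CANX at 0.0282. With TMM factors CALR was at 0.0005 and CANX at 0.0022, and ATF3 was at -0.0085 with edgeR and -0.0116 with DESeq2. Across the fits without a library, the log2 fold change ranged from -0.0236 to 0.0609 for ATF4, -0.16 to 0.25 for ATF3, -0.05 to 0.0428 for STC2, -0.13 to 0.0766 for DNAJB9, -0.39 to 0.22 for SDF2L1, -0.0149 to 0.0659 for PDIA6, -0.12 to 0.18 for CALR, -0.0843 to 0.13 for CANX and -0.0498 to 0.15 for SEL1L. The cause was not tested. No scaling moved the median of all loci by over 0.1. Every member had at least 112 reads in every library. Over all loci in the fit, 2 libraries of a group were compared by chi-square per degree of freedom, which sets their spread against that of counting alone. It was 12.61 to 79.06 in si-CTRL and 20.29 to 387.5 in si-SAM68. The part of counting error in the spread of the members was not tested.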
